A study of Mus musculus with 4 samples.

Results

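The genes described here are Runx1, Runx2, Runx3 and Cbfb, 4 of the 21887 protein-coding genes whose spans were examined in chromatin accessibility data from mouse mammary epithelium. They were taken by name as the RUNX transcription factor family and its shared partner, whatever their values. RUNX proteins are transcription factors that bind DNA through a Runt domain, and CBFβ, the product of Cbfb, does not contact DNA itself but stabilises the RUNX protein on its site. All 3 RUNX proteins read nearly the same short DNA word, so a motif score cannot name which of them is bound. In the mammary gland Runx1 is known for its roles in basal cells and in mature luminal, oestrogen receptor-positive cells, and Runx2 is best known as the master factor of bone formation and also acts in mammary epithelium. Runx3 is best known from T cells and sensory neurons. Runx genes of mammals typically start from a distal promoter, P1, and a proximal promoter, P2, which give proteins with different first residues.

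Single-nucleus ATAC-seq marks open chromatin by transposase insertion, with a barcode for each nucleus. Nuclei came from EpCAM+ Lin- sorted cells of wild-type (WT) CD1 mammary glands, either fetal at embryonic day 18 or adult at 8 weeks. Each stage had 2 biological replicates, and all groups shared strain, genotype and sort. Sex and the number of animals pooled in a replicate are not given in the sources used here, so p-values measure only the spread between these libraries.

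The authors kept between 882 and 2804 nuclei per library, 7846 in all, with 6028168 to 19304830 reads per library and no barcode shared between libraries. Their table puts each nucleus in 1 of 14 classes, and most classes were dominated by 1 stage. Classes 1, 5 and 12 held nuclei of 1 stage only, and in the others except class 6 no library of the minor stage had more than 10 nuclei. A class is called fetal or adult by the stage of most of its nuclei, its levels are given for libraries with at least 20 nuclei, and class and stage cannot be told apart outside class 6. Marker genes gave the classes their working names. Basal markers were raised in classes 1 and 8 (8 of 8 in each) and in fetal class 4 (6 of 8). Luminal progenitor markers were raised in classes 3, 7, 9 and 5 (4, 5, 4 and 3 of 6), of which 9 and 5 were fetal. Mature luminal markers were raised in classes 2 and 11 (7 and 6 of 7), and all 6 stromal markers in class 6, although the sort was for EpCAM+ cells. Classes 10, 12, 13 and 14 are left unnamed: class 14 had 6 of 8 basal and 6 of 7 mature luminal markers raised, class 10 had 3 of 6 luminal progenitor and 4 of 7 mature luminal ones, class 12 had 3 of 8 basal and 3 of 6 stromal ones, and class 13 had at most 1 marker of each of these lists. Over the 14 classes the 7 immune markers ranged from 0 CPM for Lyz2 to 69.9 CPM for Cd68, Ptprc lay between 7.72 and 30.9 CPM, and stromal-like class 6 had 3 of the 7 raised. Their part in the results was not tested. CPM means reads scaled to 1000000 reads of the nuclei concerned.

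The start sites of the RUNX genes carry a shared sequence. The RefSeq promoter table for GRCm38.p6 lists 2 start sites for Runx1 and for Runx3, and 1 each for Runx2 and Cbfb. The upstream site of Runx1 and of Runx3 is called P1 here and the downstream one P2, and the Runx2 site is called P1. No other site was listed for Runx2, so a Runx2 P2 was not examined. An identical run of 18 bases, in capitals in the lines below, was found at all 3 P1 sites. It begins at position 26 from the Runx1 P1 start, at 21 from the Runx2 P1 start and at -136 from the Runx3 P1 start.
Runx1 P1, chr16:92826025-92826054, minus strand: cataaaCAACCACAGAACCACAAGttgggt
Runx2 P1, chr17:44814583-44814612, minus strand: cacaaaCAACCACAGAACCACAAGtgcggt
Runx3 P1, chr4:135120503-135120532, plus strand: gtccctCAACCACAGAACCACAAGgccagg
Of 32851 start-site windows of 300 bases in the table, 4 held this run, these 3 and that of Gm16225. The run contains AACCACA on both sides of a G, and ACCACA is the reverse complement of TGTGGT, the core of a RUNX site. The core, searched as TGTGGT on both strands, was present in 16.8% of all windows, and AACCACA on both strands in 5.27%. The P1 windows of Runx1, Runx2 and Runx3 held the core 2, 3 and 2 times, and the windows of Runx1 P2, Runx3 P2 and Cbfb did not hold these letters. A match to these letters is not evidence of binding.

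P1 and P2 differed in base composition. GC content was 45.0% at Runx1 P1, 45.3% at Runx2 P1 and 63.7% at Runx3 P1, against 69.0% at Runx1 P2, 77.3% at Runx3 P2 and 69.7% at Cbfb. The 250 bases upstream of 4 of these sites are shown because they set 2 sites with hardly any reads beside the 2 most open ones, and capitals mark ACCACA.
Runx1 P1, chr16:92826075-92826324, minus strand: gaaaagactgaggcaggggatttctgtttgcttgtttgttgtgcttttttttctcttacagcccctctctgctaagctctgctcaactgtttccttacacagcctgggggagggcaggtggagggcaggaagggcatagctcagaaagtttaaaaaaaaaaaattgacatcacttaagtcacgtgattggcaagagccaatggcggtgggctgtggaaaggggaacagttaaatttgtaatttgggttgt
Runx2 P1, chr17:44814628-44814877, minus strand: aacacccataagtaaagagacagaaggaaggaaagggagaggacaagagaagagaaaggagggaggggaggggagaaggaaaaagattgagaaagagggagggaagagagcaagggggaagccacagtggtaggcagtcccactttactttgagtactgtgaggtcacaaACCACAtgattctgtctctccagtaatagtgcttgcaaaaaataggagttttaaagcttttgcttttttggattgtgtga
Runx1 P2, chr16:92697330-92697579, minus strand: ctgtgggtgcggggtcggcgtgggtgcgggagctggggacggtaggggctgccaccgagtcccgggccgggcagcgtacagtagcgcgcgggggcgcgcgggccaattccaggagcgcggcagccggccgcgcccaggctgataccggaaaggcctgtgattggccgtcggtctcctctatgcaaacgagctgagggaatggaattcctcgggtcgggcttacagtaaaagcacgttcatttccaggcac
Cbfb, chr8:105170424-105170673, plus strand: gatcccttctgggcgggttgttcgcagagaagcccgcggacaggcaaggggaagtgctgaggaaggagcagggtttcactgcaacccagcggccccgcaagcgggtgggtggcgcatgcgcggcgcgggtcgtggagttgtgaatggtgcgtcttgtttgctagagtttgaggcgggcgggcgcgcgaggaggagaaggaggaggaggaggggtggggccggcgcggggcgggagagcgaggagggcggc

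Open chromatin lay at Runx1 P2 and at the Cbfb start, and hardly any reads lay at the P1 sites. In 1000-base windows centred on the start, Runx1 P2 received 42.3 and 34.4 CPM in the fetal libraries and 43.3 and 35.2 CPM in the adult ones. Cbfb received 27.7 and 29.2 CPM in fetal and 29.4 and 28.4 CPM in adult libraries. These 2 windows ranked at the 96.9th and 92.9th percentile of the 32851 windows. The fetal and adult values overlapped at both.

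At Runx1 P1, 2 and 8 reads were counted in the fetal and 9 and 2 reads in the adult libraries, at the 36.5th percentile of windows. Runx2 P1 received 8, 11, 10 and 19 reads in the same library order, and Runx3 P1 received 4, 5, 8 and 1 reads. Both lay below the median window, at the 44.0th and 34.9th percentile. Runx3 P2 lay at the 55.8th percentile, with 5.81 and 5.00 CPM in fetal and 3.53 and 2.07 CPM in adult libraries.

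Of the 4 start-site windows with enough reads to test, 1 was called, Runx3 P2, and 22.3% of all tested windows were called (edgeR's quasi-likelihood test, Benjamini-Hochberg adjusted p under 0.05, a test added after the data were seen). Its log2 fold change, fetal over adult, was 0.95 (SE 0.349, adjusted p = 0.0325 in edgeR). DESeq2 did not call it (adjusted p = 0.0993), nor did edgeR with no filter on low windows (adjusted p = 0.0514), and it was lost on leaving out fetal replicate 1, fetal replicate 2 or adult replicate 2 (adjusted p 0.0990, 0.113 and 0.292). Runx1 P2 changed by -0.06 (SE 0.122, adjusted p = 0.792) and Cbfb by -0.02 (SE 0.135, adjusted p = 0.946) in edgeR. Runx2 P1 changed by 0.07 with a wide error (SE 0.701, adjusted p = 0.959 in edgeR).

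**Figure D1:**
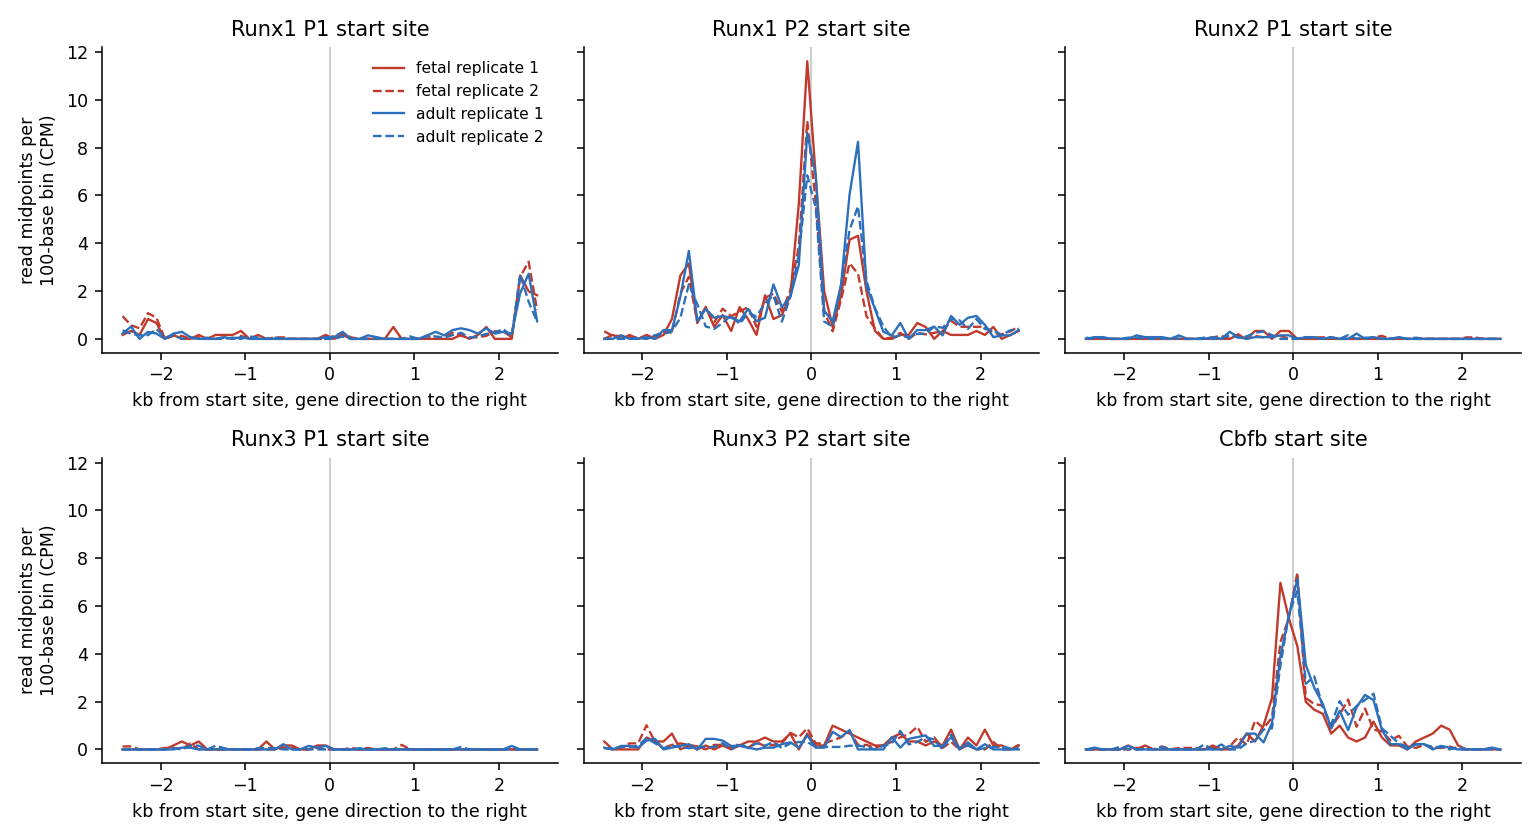
Read midpoints per 100-base bin (y axis, CPM) against distance from the annotated start site in kb (x axis), with 1 line for each of the 4 libraries. Runx1 P2 and Cbfb carry peaks at the start site, whereas hardly any reads lie at the 3 P1 start sites themselves. Inside the gene, a peak stands 2250 to 2450 bases from Runx1 P1 in every library, and the peak 550 bases inside the gene from Runx1 P2 lies higher in the adult libraries. That last peak was picked after the profile was seen, and its difference carries no test.

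The profile at Runx1 P2 held several peaks, of which 2 are described. In the bin just upstream of the start, fetal libraries had 11.6 and 9.11 CPM and adult libraries 8.61 and 6.84 CPM. In the bin centred 550 bases into the gene, the order was the opposite, with 4.31 and 2.72 CPM in fetal and 8.24 and 5.54 CPM in adult libraries. The stages did not overlap in either bin, and the share of all bins without overlap was not counted. The bins were picked after the profile was seen and carry no test.

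Over whole genes, Runx3 and Runx2 were more accessible in fetal libraries, and Runx1 and Cbfb were not called. Counting reads over the gene span plus 2000 bases on either side, Runx3 (chr4:135120645-135177990) had 55.7 and 41.1 CPM in the fetal and 30.8 and 26.4 CPM in the adult libraries. Runx2 (chr17:44495987-44814797) had 257 and 246 CPM in fetal against 199 and 204 CPM in adult libraries. Both fetal libraries were above both adult libraries for each gene. Where all nuclei of a library are summed, fewer nuclei of a type and fewer reads per nucleus of that type cannot be told apart.

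Runx1 (chr16:92601466-92826074) had 447 and 442 CPM in fetal and 511 and 480.5 CPM in adult libraries. The fetal values were the lower ones and did not overlap the adult values. Cbfb (chr8:105170674-105217989) was nearly level, with 62.9 and 63.8 CPM in fetal and 62.3 and 63.3 CPM in adult libraries, and its stages overlapped.

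By edgeR's quasi-likelihood test over 18808 genes, 2 of the 4 genes passed, where 22.2% of all tested genes did. The log2 fold change of Runx3 was 0.74 (SE 0.148, adjusted p = 0.00309) and that of Runx2 was 0.32 (SE 0.0907, adjusted p = 0.0228). Runx1 changed by -0.16 (SE 0.0745, adjusted p = 0.154) and Cbfb by 0.01 (SE 0.115, adjusted p = 0.951). With the replicate number added as a block, Runx1 was called (adjusted p = 0.0459 in edgeR). The stages did not overlap in 3 of the 4 genes, and in 58.4% of all tested genes. The call on Runx2 was lost on leaving out fetal replicate 1, fetal replicate 2 or adult replicate 1 (adjusted p 0.130, 0.168 and 0.0972). Runx2 shares part of its span with Supt3, so reads of the overlap belong to both.

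Per kb of counted span, the order of levels was Runx1, Cbfb, Runx2 and Runx3, at 2.06, 1.23, 0.70 and 0.63 CPM per kb over the 4 libraries. The median tested gene had 0.858 CPM per kb, so Runx1 and Cbfb lay above it, at percentiles 79.6 and 63.1, and Runx2 and Runx3 below it, at percentiles 43.3 and 39.6.

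Across the 14 classes, Runx1 was highest in adult basal-like class 1, followed by mature luminal-like class 2, and lowest in stromal-like class 6. Class 1 had 797 and 687 CPM in adult replicates 1 and 2, and class 2 had 592 and 634 CPM. Class 6 had 150 ± 12.9 CPM (SD, n = 4), with both fetal and both adult libraries between 138 and 168 CPM. The next class above it, fetal class 13, stood at 357 and 348 CPM, so class 6 was separate from every other class. From class 14 down to class 4, neighbouring classes overlapped in their library ranges, from 538 ± 68.6 to 420 ± 0.258 CPM (SD, n = 2).

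Runx1 also differed within the basal-like nuclei. Class 8, the other adult basal-like class, had 558 and 370 CPM, below both values of class 1. The share of reads in promoter regions was 25.8% and 25.5% in class 1 and 18.9% and 17.5% in class 8. The part of this share in the Runx1 level was not tested. Among luminal progenitor-like nuclei, adult class 3 had 400 and 360 CPM and fetal class 9 had 469 and 460 CPM.

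The order of classes for Runx2 was another one. Class 1 was highest at 350 and 347 CPM, and fetal luminal progenitor-like class 9 came next at 282 and 276 CPM. The mature luminal-like classes were at the bottom, class 11 with 174 and 135 CPM and class 2 with 114 and 137 CPM. After class 9 came classes 3, 7, 4, 8, 6, 5, 14 and 12, each overlapping with its neighbours in that run, with class means of 250.4 to 221 CPM. Class 12 did not overlap with class 13, the next one down, and classes 13 and 10 had means of 187 and 179 CPM. Stromal-like class 6 lay within that group at 236 ± 22.7 CPM (SD, n = 4), whereas for Runx1 it was the lowest. Its fetal libraries had 249 and 259 CPM, from 23 and 33 nuclei, and its adult libraries 225 and 209 CPM.

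Runx3 was highest in 5 fetal classes. Classes 9, 13, 12, 5 and 4, all fetal, had means of 45.8 to 51.1 CPM, and the classes of adult nuclei had means of 15.7 to 36.6 CPM. Neighbours in this order overlapped throughout, and the 2 libraries of fetal class 12 stood far apart, at 63.5 and 32.1 CPM. Class 6, the class found at both stages, did not separate them, with 55.2 and 22.8 CPM in fetal and 28.4 and 36.3 CPM in adult nuclei. Only 23 nuclei stand behind its first fetal value.

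Cbfb was nearly flat. Class means ran from 52.3 CPM in class 8 to 75.3 CPM in class 10, and every class overlapped with the next one in the order. Its start-site window varied more, from 11.8 and 15.3 CPM in class 8 to 49.7 and 50.2 CPM in the adult nuclei of class 6. Class 8 is also the class with the lowest share of reads in promoter regions, and the part of that share in the Cbfb window was not tested. The classes were made from the same nuclei, so these levels are a description and carry no test.

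**Figure D2:**
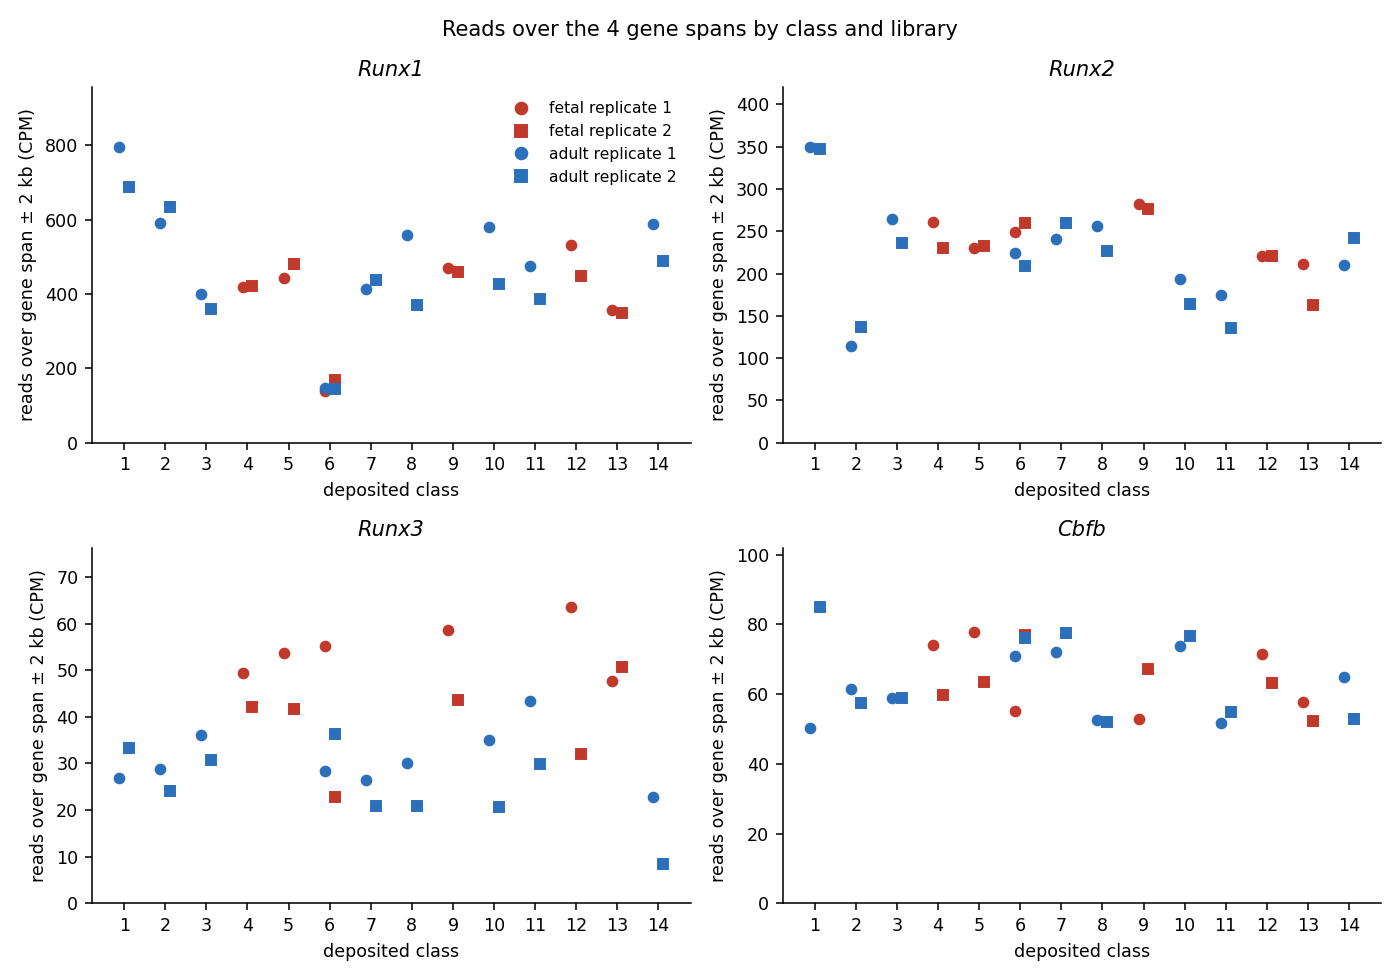
Reads over each gene span plus 2 kb (y axis, CPM over the nuclei of that class and library) for the 14 deposited classes (x axis), with 1 point per library with at least 20 nuclei. Runx1 peaks in class 1 and drops in class 6, Runx2 is lowest in classes 2 and 11, Runx3 is higher in most fetal points, and Cbfb is nearly flat.

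A comparison within the basal-like classes set fetal class 4 against adult classes 1 and 8 pooled. Runx1 was lower in the fetal nuclei, with 420.1 and 420.5 CPM against 684 and 531 CPM, and the stages did not overlap. Runx3 had 49.4 and 42.1 CPM in fetal against 28.5 and 27.3 CPM in adult nuclei, and Runx2 had 262 and 231 CPM against 306 and 288 CPM. These 2 genes did not overlap between the stages either, whereas Cbfb did, with 74.1 and 59.8 CPM against 51.4 and 68.8 CPM. Of all genes tested in these classes, 49.1% did not overlap.

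In edgeR's test, 1 of the 4 genes was called, where 6.16% of all tested genes were. Runx1 fell by 0.50 on the log2 scale (SE 0.130, adjusted p = 0.0124). Runx3 changed by 0.72 (SE 0.280, adjusted p = 0.124), Runx2 by -0.26 (SE 0.151, adjusted p = 0.364) and Cbfb by 0.12 (SE 0.234, adjusted p = 0.839). The Runx1 call rested on class 1: the log2 fold change was -0.68 against class 1 alone (adjusted p = 0.000327 in edgeR) and -0.23 against class 8 alone (adjusted p = 0.604). It was also lost with DESeq2 (adjusted p = 0.0507) and on leaving out fetal replicate 1, fetal replicate 2 or adult replicate 1 (adjusted p 0.0925, 0.0566 and 0.252).

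Within the luminal progenitor-like classes, fetal class 9 was set against adult classes 3 and 7. Runx3 had 58.5 and 43.7 CPM in fetal and 29.8 and 25.7 CPM in adult nuclei. Runx1 had 469 and 460 CPM against 408 and 400 CPM, and Runx2 had 282 and 276 CPM against 249 and 249 CPM. All 3 RUNX genes were higher in the fetal nuclei without overlap, and Cbfb, at 52.9 and 67.1 CPM against 67.5 and 68.4 CPM, was lower without overlap. The same held, in either direction, for 55.8% of all genes tested in these classes.

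In edgeR's test 1 of the 4 genes passed, against 15.8% of all tested genes. Runx3 rose by 0.84 (SE 0.187, adjusted p = 0.00356). Runx1 changed by 0.18 (SE 0.0883, adjusted p = 0.182), Runx2 by 0.14 (SE 0.0993, adjusted p = 0.365) and Cbfb by -0.18 (SE 0.154, adjusted p = 0.487). Against adult class 3 alone the log2 fold change of Runx3 was 0.52 and was not called (adjusted p = 0.137 in edgeR), and against class 7 alone it was 1.10 (adjusted p = 3.18e-05).

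The stage differences of the 2 lineages were then compared with each other, in an edgeR fit with each library as a block that was added after the data were seen. Of all tested genes, 6.08% were called. The stage difference of Runx1 in the basal-like classes minus that in the luminal progenitor-like classes was -0.71 on the log2 scale (SE 0.134, adjusted p = 1.97e-05). That of Runx2 differed by -0.44 (SE 0.155, adjusted p = 0.0707), that of Runx3 by -0.14 (SE 0.324, adjusted p = 0.890) and that of Cbfb by 0.27 (SE 0.255, adjusted p = 0.681). The call on Runx1 was lost without adult replicate 1 (adjusted p = 0.0553 in edgeR) and with class 8 in place of both basal-like classes, at -0.44 beside class 3 and -0.40 beside class 7 (adjusted p 0.233 and 0.139).

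Accessibility at RUNX motifs was lower in fetal nuclei. A chromVAR score, deposited by the authors for 427 motifs, measures how far reads at regions holding a motif depart from the average nucleus. The Runx1 and Runx3 columns held identical scores, Runx2 had its own column, and no column was named for Cbfb. Of the 427 columns 388 were distinct, so ranks and shares over 427 count some scores more than once. Over all nuclei, fetal libraries had a mean Runx1 score of -0.43 and -0.47, and adult libraries one of 0.22 and 0.31. The Runx2 score was -0.43 and -0.46 in fetal and 0.23 and 0.26 in adult libraries. Neither overlapped between the stages, and the share of all 427 motifs without overlap was not counted.

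With limma on the library means, both columns were called, as were 67.9% of all motifs. The difference, fetal minus adult, was -0.71 for Runx1 (SE 0.0521, adjusted p = 0.000163) and -0.69 for Runx2 (SE 0.0449, adjusted p = 0.00012). By signed size they were the 62nd and 66th lowest of 427, so many motifs moved more.

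The fall was larger in the basal-like comparison than over all nuclei. In fetal class 4 the Runx1 score was -0.79 and -0.81, against 0.52 and 0.59 in adult classes 1 and 8. That difference of -1.35 (SE 0.0767, adjusted p = 1.05e-43 in limma) was the lowest of all 427 motifs, where 50.4% were called. The Runx2 score was -0.78 and -0.74 in class 4 against 0.11 and 0.15, a difference of -0.89 (SE 0.0767, adjusted p = 2.26e-23 in limma), the 4th lowest. By absolute size the Runx1 and Runx2 differences ranked 2nd and 6th. With 2 libraries a stage these p-values rest on a spread shared over the motifs, with 251 prior degrees of freedom, and motif scores are not independent of each other. Unlike the Runx1 gene span, the Runx1 motif score kept its call against class 8 alone, at -1.15 (adjusted p = 5.48e-08 in limma). Stromal-like class 6, found at both stages, was also lower in fetal nuclei and was not tested. Its Runx1 scores were -1.23 and -1.06 in fetal and -0.11 and -0.38 in adult libraries. The fetal values rest on 23 and 33 nuclei.

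In the comparison of fetal class 9 with adult classes 3 and 7 the mean scores lay close together. Fetal class 5, also luminal progenitor-like, was left out of it. In fetal replicates 1 and 2 its Runx1 scores were -0.50 and -0.45 and its Runx2 scores -0.45 and -0.52. Fetal class 9 had mean Runx1 scores of -0.10 and -0.13, and adult classes 3 and 7 had 0.12 and -0.01. The class 9 medians were lower, at -0.19 and -0.35, and its nuclei were spread with SDs of 1.37 and 1.59. In adult classes 3 and 7 the medians by class and library were -0.11 to 0.12, with SDs of 1.00 to 1.12. The differences of the means were -0.18 for Runx1 (SE 0.0607, adjusted p = 0.0392 in limma) and -0.27 for Runx2 (SE 0.052, adjusted p = 0.00391), where 64.2% of motifs were called. The call on Runx1 was lost on leaving out any of the 4 libraries (adjusted p 0.0558 to 0.255) and against class 3 alone (adjusted p = 0.417). That on Runx2 was lost without adult replicate 1 (adjusted p = 0.0626) and against class 3 alone (adjusted p = 0.219).

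The difference between the 2 lineages' stage differences was -1.18 for Runx1 (SE 0.0881, adjusted p = 7.85e-13 in limma) and -0.62 for Runx2 (SE 0.0857, adjusted p = 4.54e-07), where 34.4% of motifs were called. The Runx1 value was the lowest of all 427, and by absolute size it ranked 8th. The p-values of this lineage comparison also rest on a spread shared over the motifs, with 29.85 prior degrees of freedom. These motif tests within classes were added after the data were seen.

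**Figure D3:**
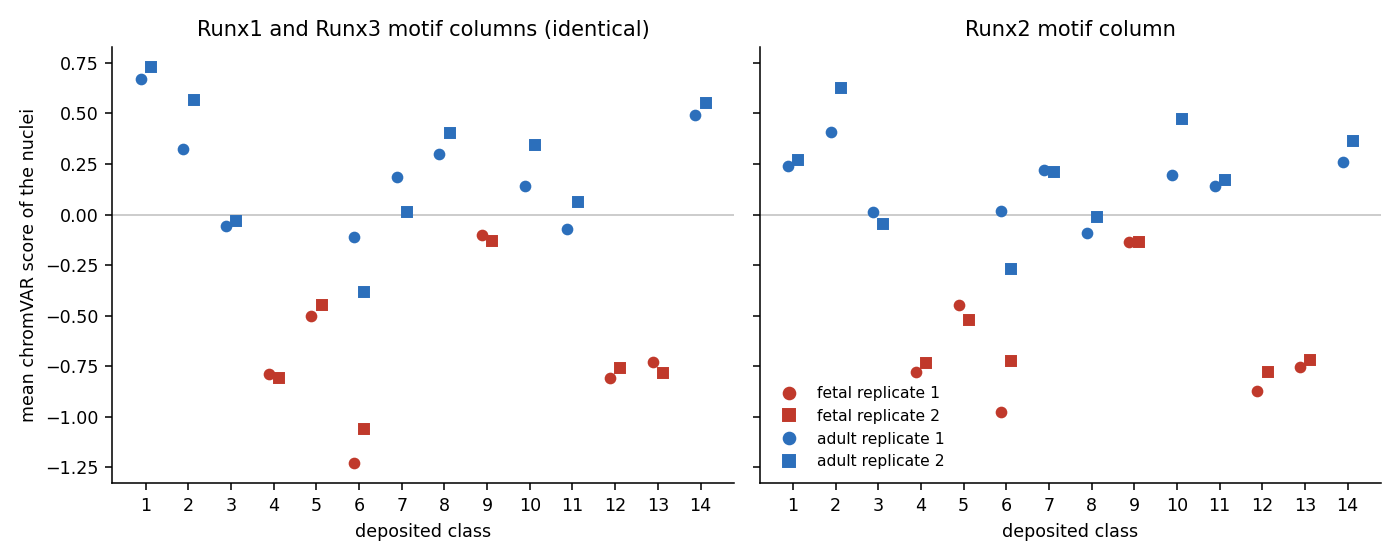
Mean chromVAR score of the nuclei (y axis) for the 14 deposited classes (x axis), with 1 point per library with at least 20 nuclei, for the identical Runx1 and Runx3 columns and for the Runx2 column. Adult class 1 is highest in the Runx1 column, fetal class 9 lies near adult class 3, and the other fetal classes lie below.

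The relation between gene level and motif score differed in sign between the RUNX genes. Over the 13 classes with at least 100 nuclei, the Runx1 span level correlated with the Runx1 motif score at r = 0.50, Runx2 with the Runx2 score at -0.18, and Runx3 with the column it shares with Runx1 at -0.72. These are descriptions over classes that share libraries, depth and stage.

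Inside the Runx1 gene, distal regions on the 2 sides of P2 differed in direction. The deposited list of 1000-base distal regions had 82 within the Runx1 span or 100 kb of it, of which 80 had enough reads to test. Of these, 12 were higher and 11 lower in fetal libraries, 28.8% against 35.3% of all tested distal regions, so the count as such does not stand apart from the background. Upstream of P1, 3 of 13 tested regions were higher and 0 lower. Between P1 and P2, 5 of 11 were higher and 0 lower, with a median log2 fold change of 1.27. From P2 to the gene end, 2 of 37 were higher and 9 lower, with a median of -0.65. Past the gene end, 2 of 19 were higher and 2 lower, with a median of 0.02. Over all distal regions, 16.6% were higher and 18.8% lower. The split at P2 was made with the values known and carries no test. It was not repeated under the alternatives. Under those that kept all 4 libraries, 11 to 24 regions near Runx1 were called.

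**Figure D4:**
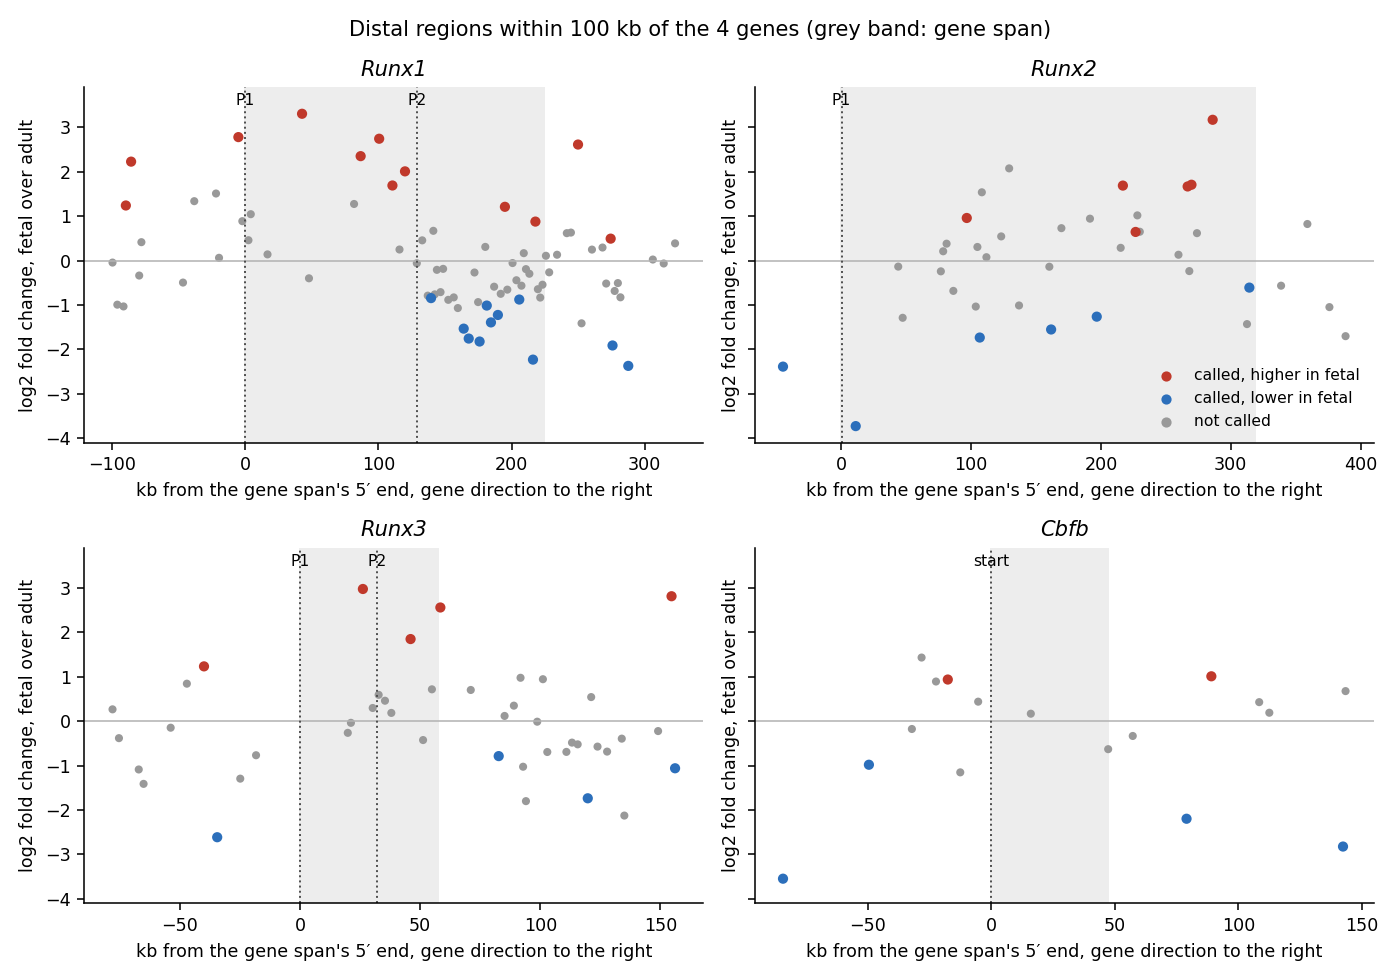
Log2 fold change, fetal over adult, of each tested distal region (y axis) against distance in kb from the 5′ end of the gene span (x axis), for the 4 genes, with called regions coloured by direction and dotted lines at the start sites. Near Runx1 the called regions upstream of P2 are all higher in fetal libraries, and 9 of the 11 called regions from P2 to the gene end are lower.

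The largest Runx1 fall among regions averaging 50 or more reads per library was at chr16:92609521-92610520, inside the gene near its 3′ end. It had 7.46 and 4.94 CPM in fetal and 26.1 and 30.7 CPM in adult libraries, a log2 fold change of -2.23 (SE 0.229, adjusted p = 6.98e-10 in edgeR). By class it was open in adult basal-like class 1, with 63.3 and 75.2 CPM, in class 14, with a mean of 51.0 CPM, and in mature luminal-like class 2, with 29.3 and 36.1 CPM. Fetal classes 9 and 5 had means of 5.50 and 2.50 CPM, and fetal class 4 had 11.0 CPM. Adult basal-like class 8, at 17.4 and 23.6 CPM, lay between class 4 and class 1. Adult classes 10, 11 and 7 had means of 31.15, 24.2 and 21.4 CPM. Adult luminal progenitor-like class 3, at 10.9 CPM, was level with fetal class 4. Fetal classes 12 and 13 had 10.3 and 1.63 CPM.

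The largest Runx1 rise among regions averaging 50 or more reads was at chr16:92725006-92726005, between P1 and P2. Fetal libraries had 9.62 and 10.8 CPM and adult libraries 1.25 and 1.81 CPM, a log2 fold change of 2.74 (SE 0.325, adjusted p = 1.45e-08 in edgeR). It had 19.7 and 22.8 CPM in fetal class 5 and 28.6 and 10.6 CPM in fetal class 12, where the libraries stood far apart, and 4.94 and 9.01 CPM in fetal class 9. No read fell there in classes 6, 10 and 14. Adult class 1 had 5.97 CPM and fetal class 4 had 4.79 CPM, so the basal-like classes of both stages were close together here. A neighbour at chr16:92738919-92739918 had 14.4 and 14.6 CPM in fetal against 2.72 and 3.06 CPM in adult libraries (log2 fold change 2.35, SE 0.265, adjusted p = 5.53e-09 in edgeR). With libraries pooled, this neighbour was as open in adult basal-like class 1, at 17.3 CPM, as in fetal class 4, at 16.4 CPM. Adult class 8 had 7.72 CPM. Fetal classes 12, 5, 9 and 13 had 25.6, 18.6, 11.1 and 0 CPM, and adult classes 3, 7, 2 and 11 had 2.17, 1.41, 0.213 and 0 CPM. The region that holds Runx1 P2, chr16:92696759-92697758, had class means of 25.5 to 52.0 CPM outside stromal-like class 6. In class 6 it had 55.3 and 14.3 CPM in the fetal and 11.8 and 12.1 CPM in the adult libraries, and the first of these rests on 8 reads in 23 nuclei.

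**Figure D5:**
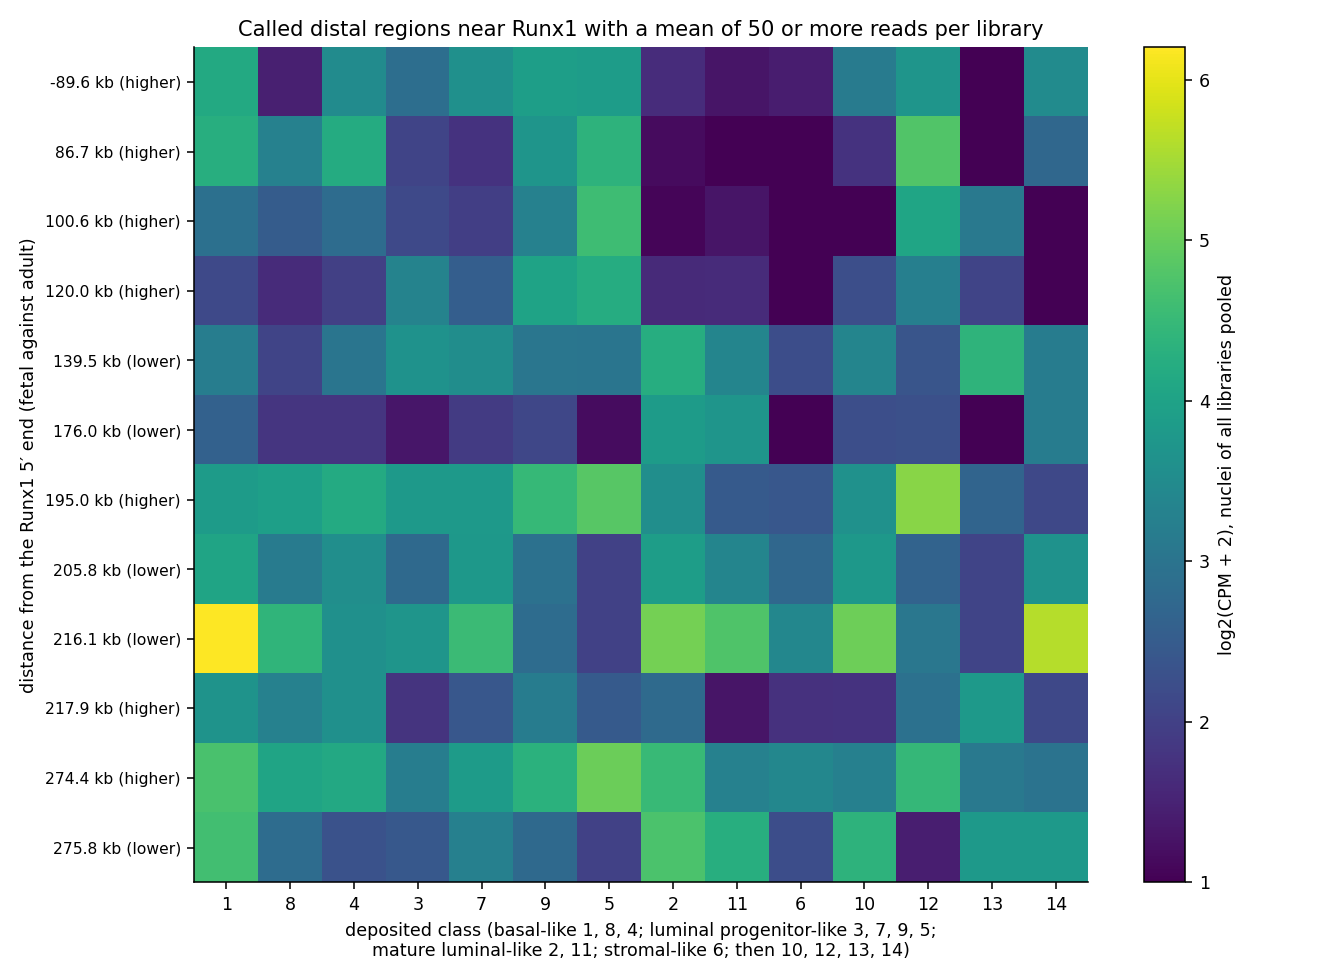
Level of each called distal region near Runx1 averaging 50 or more reads per library (rows, by distance in kb from the gene's 5′ end and direction in fetal libraries) in the 14 deposited classes (columns), as log2(CPM + 2) over the nuclei of all libraries. The row at 216.1 kb is brightest in classes 1 and 14, and the row at 100.6 kb in classes 5 and 12.

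Near Runx2, 39 of 46 regions could be tested, with 6 higher and 6 lower in fetal libraries (30.8%). The largest rise among regions averaging 50 or more reads was at chr17:44544556-44545555, inside the gene, with 21.9 and 17.6 CPM in fetal and 6.26 and 6.01 CPM in adult libraries (log2 fold change 1.71, SE 0.227, adjusted p = 1.5e-07 in edgeR). It was nearly empty in the mature luminal-like classes, at 0.101 CPM in class 2 and 0.311 CPM in class 11, and most open in fetal classes 5 and 9, at 25.2 and 24.6 CPM. Adult luminal progenitor-like classes 3 and 7 had 14.4 and 12.7 CPM. The largest fall at that read depth was at chr17:44617528-44618527, also inside the gene, with 2.65 and 3.42 CPM in fetal against 7.95 and 7.46 CPM in adult libraries (log2 fold change -1.26, SE 0.313, adjusted p = 0.0015 in edgeR). That region was highest in stromal-like class 6, at a mean of 19.0 CPM, and in mature luminal-like class 2, at 11.9 CPM.

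Near Runx3, 43 of 47 regions were tested, and 5 were higher and 4 lower (20.9%). The largest rise among regions averaging 50 or more reads was at chr4:135080187-135081186, upstream of P1, with 6.97 and 7.02 CPM in fetal and 2.43 and 3.57 CPM in adult libraries (log2 fold change 1.23, SE 0.322, adjusted p = 0.0025 in edgeR). Unlike the gene span, this region had its highest means in basal-like classes 4 and 8, at 16.9 CPM in the fetal and 11.5 CPM in the adult class. The other adult basal-like class, class 1, had a mean of 8.24 CPM, below the 9.80 CPM of unnamed fetal class 12. Its call was lost without adult replicate 1 (adjusted p = 0.0703). The largest fall at that read depth was at chr4:135276212-135277211, on the far side of Clic4, with 8.29 and 8.99 CPM in fetal and 20.7 and 16.6 CPM in adult libraries (log2 fold change -1.06, SE 0.221, adjusted p = 0.000211 in edgeR).

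Near Cbfb, 17 of 20 regions were tested, and 2 were higher and 4 lower (35.3%), the same share as among all distal regions. The rise at chr8:105259224-105260223, in Tradd, went from 4.42 and 5.02 CPM in adult to 9.79 and 8.99 CPM in fetal libraries (log2 fold change 1.01, SE 0.273, adjusted p = 0.00339 in edgeR). The fall at chr8:105120598-105121597 was from 7.06 and 4.40 CPM in adult to 2.32 and 3.10 CPM in fetal libraries (log2 fold change -0.98, SE 0.355, adjusted p = 0.0278 in edgeR). DESeq2 did not call it (adjusted p = 0.122), and edgeR lost it without fetal replicate 1 or adult replicate 1 (adjusted p 0.0837 and 0.280).

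The deposited promoter list touched the spans of Runx2 and Cbfb only, and none of these 4 regions was called, against 21.5% of all tested promoter regions. The region at the Cbfb start, chr8:105170025-105171024, had 26.5 and 28.0 CPM in fetal and 28.0 and 26.5 CPM in adult libraries. The other Cbfb region, chr8:105171798-105172797, had 4.15 and 2.21 CPM against 1.84 and 2.33 CPM. In the Runx2 span, chr17:44776567-44777566 had 16.9 and 18.1 CPM in fetal and 20.2 and 21.0 CPM in adult libraries, and it lies at the start of Supt3. The region at Runx2 P1, chr17:44814399-44815398, had 0.886 to 1.49 CPM in the 4 libraries. Log2 fold changes of the 4 regions ran from -0.23 to 0.49, with adjusted p from 0.328 to 0.979 in edgeR.

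Links near Runx1 and Runx2 joined distal regions with each other. None reached the regions at Runx1 P2, Runx2 P1 and the Cbfb start or the region beside Runx3 P2. No listed region lay at Runx1 P1 or Runx3 P1, so links of these sites could not be examined. In the authors' deposited Cicero table, which scores how far 2 regions open in the same nuclei of all libraries, a link was set at a score of at least 0.25. Near Runx1 20 of 3273 listed pairs were linked (0.611%), near Runx2 6 of 1092 (0.549%), near Cbfb 1 of 566 (0.177%) and near Runx3 0 of 1118. Of all pairs listed, 0.514% were linked, so the shares near Runx1 and Runx2 were close to that background. Only 14.6% of all promoter regions and 14.6% of all distal regions had a link, so a region without one was the usual case. At a score of at least 0.1, Runx1 P2 had 9 links in 140 pairs and the Cbfb start 3 in 82. Runx2 P1 and the region beside Runx3 P2 had 0. The strongest Runx1 pair joined the fall at chr16:92609521-92610520 with chr16:92549804-92550803, 59.7 kb away past the gene end, with a score of 0.452. That partner was also lower in fetal libraries, by a log2 fold change of -1.91. The second joined the rises at chr16:92725006-92726005 and chr16:92738919-92739918, with a score of 0.408. Near Runx2 the strongest pair joined the rise at chr17:44544556-44545555 with chr17:44547510-44548509, which also rose by 1.67, with a score of 0.435. The highest score of a region at or beside a start site was 0.174 for Runx1 P2, with chr16:92686065-92687064. It was 0.151 for Cbfb, 0.017 for the region beside Runx3 P2 and 0 for Runx2 P1. The scores come from the same nuclei as the stage comparison, so they are not independent of it.

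The genes whose span levels followed each member most closely over 13 classes differed between members. For Runx1 they were Nav2, Itga6, Padi1, Cav2 and Gata3, with r from 0.92 to 0.94 among 16711 genes. Gata3 is a factor of luminal cells and Itga6 an integrin used to sort basal cells. For Runx2 they included Csdc2, Epha4, Marchf3 and Igf1r (r from 0.93 to 0.94), for Runx3 Isl2, Shank3, Fam78a, Elfn2 and Calcoco2 (0.91 to 0.92), and for Cbfb Sh2b2, Zfp869, Fpgs, Cnot4 and Nudt4 (0.89 to 0.93). The members themselves were not alike: r was 0.02 between Runx1 and Runx2, -0.11 between Runx1 and Runx3, 0.12 between Runx2 and Runx3, and 0.03, 0.45 and -0.16 between Cbfb and Runx1, Runx2 and Runx3. The classes share libraries and depth, so these values are descriptions.

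Of 20 genes for RUNX cofactors, 0 were higher and 3 lower in fetal libraries over all nuclei, 15.0% against the 22.2% of all tested genes. The 3 were Smad3, a mediator of TGF-β signalling, with 197 and 196 CPM in fetal and 355 and 273 CPM in adult libraries (log2 fold change -0.67, SE 0.104, adjusted p = 0.000619 in edgeR), and with smaller falls the kinase gene Hipk2 (-0.35) and the Hippo pathway co-activator gene Wwtr1 (-0.29). The median of the list was 0.16 and that of all genes 0.01. In the basal-like comparison Kmt2a, a histone methyltransferase gene, rose by 0.85 and Smad1 fell by 0.65, the 2 cofactor genes called of 20, or 10.0% against 6.16% of all tested genes. In the luminal progenitor-like comparison the co-repressor genes Tle2 and Cbfa2t3 rose, by 1.17 and 0.64, and Wwtr1 and Smad3 fell, by 0.74 and 0.61, which made 4 of 20, or 20.0% against 15.8% of all tested genes.

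Of 20 genes known as RUNX targets, 2 were higher and 3 lower over all nuclei, 25.0% of the list against 22.2% of all tested genes. The bone factor gene Sp7 and the myeloid factor gene Spi1 rose by 0.57 and 0.47. Foxa1 and Esr1, the pioneer factor and oestrogen receptor of mature luminal cells, fell by 0.88 and 0.80, and Csf1r fell by 0.49. Mature luminal-like classes held few fetal nuclei, and the part of class composition in these falls was not tested. Of 16 target genes that could be tested in the basal-like classes, 0 were called, where 6.16% of all genes were. In the luminal progenitor-like classes 2 of 17 were called, 11.8% against 15.8% of all tested genes. They were Spp1, the osteopontin gene, with 3.53 and 3.61 CPM in fetal and 16.8 and 12.8 CPM in adult nuclei (log2 fold change -2.06, SE 0.385, adjusted p = 0.000768 in edgeR), and Csf1r at -0.92. Col10a1, Ibsp and Mmp13 had too few reads for that test.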

How the data were processed

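Single-nucleus ATAC-seq of 2 fetal and 2 adult libraries was analysed from the authors' deposited files. Bowtie2, MACS2, bedtools and the build mm10 are named in the submitters' processing notes, with no role or version. Each deposited read list gives positions of 163 to 200 bases with a barcode, both ends of a fragment on lines of their own, and no statement on a shift of cut sites, so positions were used as they stood. Any such shift is small beside 1000-base regions. Only barcodes listed as nuclei were kept, and for all 7846 the count of reads equalled the one in the authors' deposited score table. Reads are not independent molecules, and intervals cover no more than the spread between libraries. Depth ran from 6028168 reads in fetal replicate 1 to 19304830 in adult replicate 2. The deposited table also gives chromVAR motif scores and a class number, and another deposited table gives Cicero scores. No doublet caller was run, since the authors' classes were taken as they are. The deposited gene scores name no sample and were not used.

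Reads overlapping a feature by at least 1 base were counted per library, features with a mean under 10 reads were left out, and edgeR 4.0.16 in R 4.3.3 was fitted with TMM factors over all features of a kind, with adjusted p under 0.05 as a call. The SE was derived from the fold change and F. Motif means per library were tested with limma 3.58.1. DESeq2 1.42.0, other scalings, filters and windows, a replicate block and leaving out each library were alternatives. An exact permutation test of 2 against 2 libraries cannot give a p below 0.333 and was not used. Gene spans and start-site sequences came from RefSeq, GRCm38.p6, matched by symbol for all 4 genes; coordinates of deposited regions were read as 1-based. The main edgeR fit and the limma fit were tested on simulated data. DESeq2, the edgeR fit that compares the lineages, and the counting were not. Python 3.11.15 was used for counting and plots.

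The 4 genes, the lists and the tests were chosen with earlier results of these data known. Named were the 4 genes in every result; near each, the called region with the largest fall and with the largest rise among those averaging 50 or more reads per library, and every promoter region; the 3 largest called changes in each direction of each list; the 5 most alike genes; and the 5 highest Cicero partners. One of the genes most like Runx2 is not reported here. Only the highest of those are printed. The second called region between Runx1 P1 and P2 was named after its values were seen, as were the 2 bins at Runx1 P2.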

Additional observations from a re-analysis of the deposited data

Results flagged for a closer look

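The stage difference of Runx1 over its gene span was not the same in both lineages: that of classes 4, 1 and 8 minus that of classes 9, 3 and 7 was -0.71 on the log2 scale (edgeR interaction term with each library as a block, adjusted p = 1.97e-05). Its direction was lower in fetal nuclei in the first set and higher in the second, and in the second set the stage difference itself was not called.

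The Runx1 motif score, identical to that of Runx3, differed between the lineages by -1.18 (limma, adjusted p = 7.85e-13), and the Runx2 motif score by -0.62 (limma, adjusted p = 4.54e-07). With 2 libraries a stage, both p-values rest on a spread shared over motifs that are not independent of each other. The mean score was lower in fetal nuclei in both sets, by more in the first. No group holds 4 samples, so single libraries could not be examined for values that stand apart.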

How the results depend on the processing

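Directions and calls of Runx3 over all nuclei and of both motif columns over all nuclei, in the basal-like classes and between lineages held under every alternative run for them. The counts behind the backgrounds moved with the processing. With DESeq2 the called features were 24872 distal regions, 2622 promoter regions, 2680 start-site windows, 301 genes in the basal-like and 1468 in the luminal progenitor-like comparison. With a filter at a mean of 50 reads 15301 distal regions were called. Adult class 1, 8, 3 or 7 alone gave 1696, 182, 1624 and 4339 genes, class 8 with class 3 gave 169 in the comparison of lineages, and class 8 alone gave 134 motifs. Leaving out 1 library gave 1812 to 4463 genes over all nuclei, 2514 to 3057 promoter regions, 547 to 866 genes in the basal-like, 1408 to 2477 in the luminal progenitor-like and 407 to 705 in the lineage comparison, 2358 to 2990 start-site windows, and 131 to 272 and 94 to 111 motifs in the luminal progenitor-like and lineage comparisons.

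With the replicate block, 6421 genes were called over all nuclei and Runx1 was among them, at -0.16 (adjusted p = 0.0459 in edgeR). Nothing in the labels ties a replicate number to a litter or day, and same-numbered libraries deviated together with r of 0.29 over gene spans, 0.06 over distal regions and 0.45 over motifs. The block changed no other call on the 4 genes or their motifs.

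Runx1 in the basal-like classes was -0.50 with DESeq2, -0.23 against class 8 alone, and -0.65 to -0.35 on leaving out 1 library. In the lineage comparison it was -0.44 and -0.40 with class 8 beside class 3 or 7, and -0.87 to -0.54 on leaving out 1 library. Runx2 there was called at -0.59 with classes 1 and 7 (adjusted p = 0.0111). Runx2 over all nuclei was 0.27 to 0.35 on leaving out 1 library. Runx3 against class 3 alone was 0.52, and in the lineage comparison it was 0.15 and 0.24 with class 3 beside class 1 or 8. The Runx1 and Runx2 motif differences in the luminal progenitor-like classes were -0.075 and -0.12 against class 3 alone, and -0.24 to -0.11 and -0.30 to -0.23 on leaving out 1 library.

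Uncalled values near 0 changed sign. Cbfb over all nuclei was -0.0028 with no filter, -0.077 with no flank, -0.014 with every barcode and -0.040 to 0.050 on leaving out 1 library, and it was -0.082 to 0.41 in the basal-like classes. Its start-site window was 0.017 when a mean of 50 reads was asked for and -0.12 to 0.072 on leaving out 1 library, and its promoter region -0.097 to 0.11. On leaving out 1 library the Runx1 P2 window ran from -0.13 to 0.054 and its distal region from -0.31 to 0.16 (0.048 by read midpoint), and Runx2 P1 from -0.27 to 0.53 in the window and -0.24 to 0.38 in the promoter region. The window of Runx2 P1 could not be tested without adult replicate 2. Where 1 library is left out, the lone library of its stage is assumed to vary like the other stage.

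Near the 4 genes 25 regions were higher and 25 lower. DESeq2 left 9 lower, that filter left 16 higher and 10 lower, and leaving out 1 library gave 16 to 22 and 15 to 24. Scaled to reads in regions, the adult ratio of class 1 to class 6 for Runx1 was 4.27 in place of 5.08, and that of class 10 to class 8 for Cbfb was 1.28 in place of 1.44. At a Cicero score of at least 0.1 there were 160, 38, 4 and 6 links near Runx1, Runx2, Runx3 and Cbfb, and at 0.5 there were 0. The cause of these changes was not tested. Windows with few reads, as at the P1 sites, limit what can be seen there.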
